A study of Mus musculus with 8 samples.

Results

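Fatty acid synthesis, oxidation and triglyceride genes were examined in Neuro2a cells, a murine neuroblastoma line from the AJ strain, grown in an anchorage dependent (AD) or an anchorage independent (AI) state. The 47 genes were listed by function, in 5 classes: synthesis (11 genes), activation (5), carnitine shuttle and beta-oxidation (15), glycerolipid (9), and PPAR control and fatty acid transport (7). A transcript cluster is the set of array probes for 1 transcript unit. Each gene was represented by the brightest cluster, by the mean of all 8 arrays, among those annotated with its symbol alone. By this rule 44 of the 47 genes were measured, of 19938 genes with such a cluster. Acsl1 had no cluster that carried its symbol alone, and Acsl3 and Cpt1b lay on clusters shared with another symbol, so these 3 were not analysed here.

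The 4 AD arrays came from cells attached to the dish in DMEM with fetal bovine serum, and the 4 AI arrays from detached tumorspheres in NeuroCult neural stem cell medium without serum, to which heparin, EGF and bFGF had been added. Both states are the same line without any other treatment. Attachment and medium changed together, and their parts in any difference cannot be told apart. The labels call the 4 samples of each group biological replicates from independent cultures, while the methods speak of replicate hybridizations. If these were technical, the p-values would measure the spread between repeat hybridizations and not that between cultures.

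All values are log2 array signals, and every log2 ratio is AD minus AI, so that a negative ratio means a higher signal in AI cells. A gene was called when its adjusted p was under 0.05 and the groups differed by at least 1.5-fold. The adjusted p comes from limma, a linear model with moderated variances, with Benjamini-Hochberg adjustment over all 35556 clusters. The exact permutation test of a single gene over 4 against 4 arrays cannot go below p = 0.0286. A group mean under the median signal of every array of its group was called dim, and the true ratio of a dim gene is not known exactly. In bulk RNA, fewer cells with a transcript and less transcript per cell cannot be told apart.

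The array medians were 5.82 to 5.92 in AD and 5.92 to 5.99 in AI cells. AD replicate 4 correlated with the other AD arrays at r = 0.9907 to 0.9925, while correlations among AI arrays were 0.994 to 0.9961. Its mean absolute deviation from the AD mean over the 44 genes was 0.10, where AD replicates 1 to 3 had 0.05 to 0.07 and AI replicates 0.04 to 0.06. For some genes the value without it is given as well. Of 10 neuroblastoma and sympathoadrenal markers 8 were measured and none was dim. Their mean signal was 9.17 to 9.41 in AD and 8.35 to 8.45 in AI arrays. Phox2a, Th, Dbh and Mycn were called higher in AD cells (50% of the 8, where 2.02% of all genes were). Isl1 (log2 ratio 0.34) and Gata3 (0.31) passed the adjusted p toward AD at under 1.5-fold, while Hand2 (-0.0044) and Chga (0.06) did not pass. The part of these marker differences in the results below was not tested. The adipocyte, hepatocyte and macrophage markers measured were all dim in both groups (5 of 5 in each list), as were 4 of 5 fibroblast markers, the exception being Pdgfra.

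Fatty acids are built in the cytosol from acetyl-CoA, which is made from citrate exported by mitochondria or from acetate. They are activated to acyl-CoA and then either carried into mitochondria on carnitine and shortened by beta-oxidation, or joined to glycerol to form phospholipids and the triglycerides of lipid droplets. Genes of synthesis are classical targets of SREBP factors, and genes of oxidation of the PPAR nuclear receptors. Tumor cells often build fatty acids for new membranes.

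Of the 44 genes, 2 were called, Acss2 and Lpin1, both higher in AI cells. That is 4.55% of the genes, where 2.4% of all genes (1 cluster per gene) and 2.53% of all clusters were called lower in AD. None was called higher in AD, where 2.02% of all genes and 1.39% of all clusters were. The largest ratio toward AD was 0.54 (Acaa2), under 1.5-fold. The model without moderated variances, the form of test the methods name, has the same ratios and so could not call any either. By limma 11 of the 44 genes were higher and 11 lower in AD at an unadjusted p under 0.05. No share over all genes was counted at an unadjusted p, here or for the classes below. At an adjusted p under 0.05 and any fold, 14 genes passed. Of these, 9 were lower in AD (20.5%), where 10.7% of all genes and 9.62% of all clusters were. The other 5 were higher in AD (11.4%), where 11% of all genes and 8.5% of all clusters were. Over the 44 genes the median log2 ratio was -0.01, and over all genes it was 0.01.

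The counts in the 2 directions differed between the classes. Over all genes, 10.7% passed the adjusted p lower in AD and 11% higher. Of 11 synthesis genes 5 passed the adjusted p (45.5%), all lower in AD. Among 15 further synthesis genes and regulators of a wider list described below, 2 passed toward AI and 3 toward AD. The genes of both lists were chosen with earlier results of these data known. Of 14 measured genes of the carnitine shuttle and beta-oxidation, 3 passed toward AD (21.4%) and 1 toward AI (7.14%). The synthesis median was -0.11 and the oxidation median 0.13. Both medians kept their sign under quantile normalization, after centring each array on its median and without AD replicate 4 (-0.09, -0.03 and -0.08 for synthesis, 0.13, 0.20 and 0.13 for oxidation). Centring moved the ratio of every gene toward AD by the same amount, so it could not turn the oxidation median negative. The median over all genes was 0.01 as deposited, 0.03 under quantile normalization and 0.09 after centring. Whether the classes differ from each other or from other genes was not tested.

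**Figure D1:**
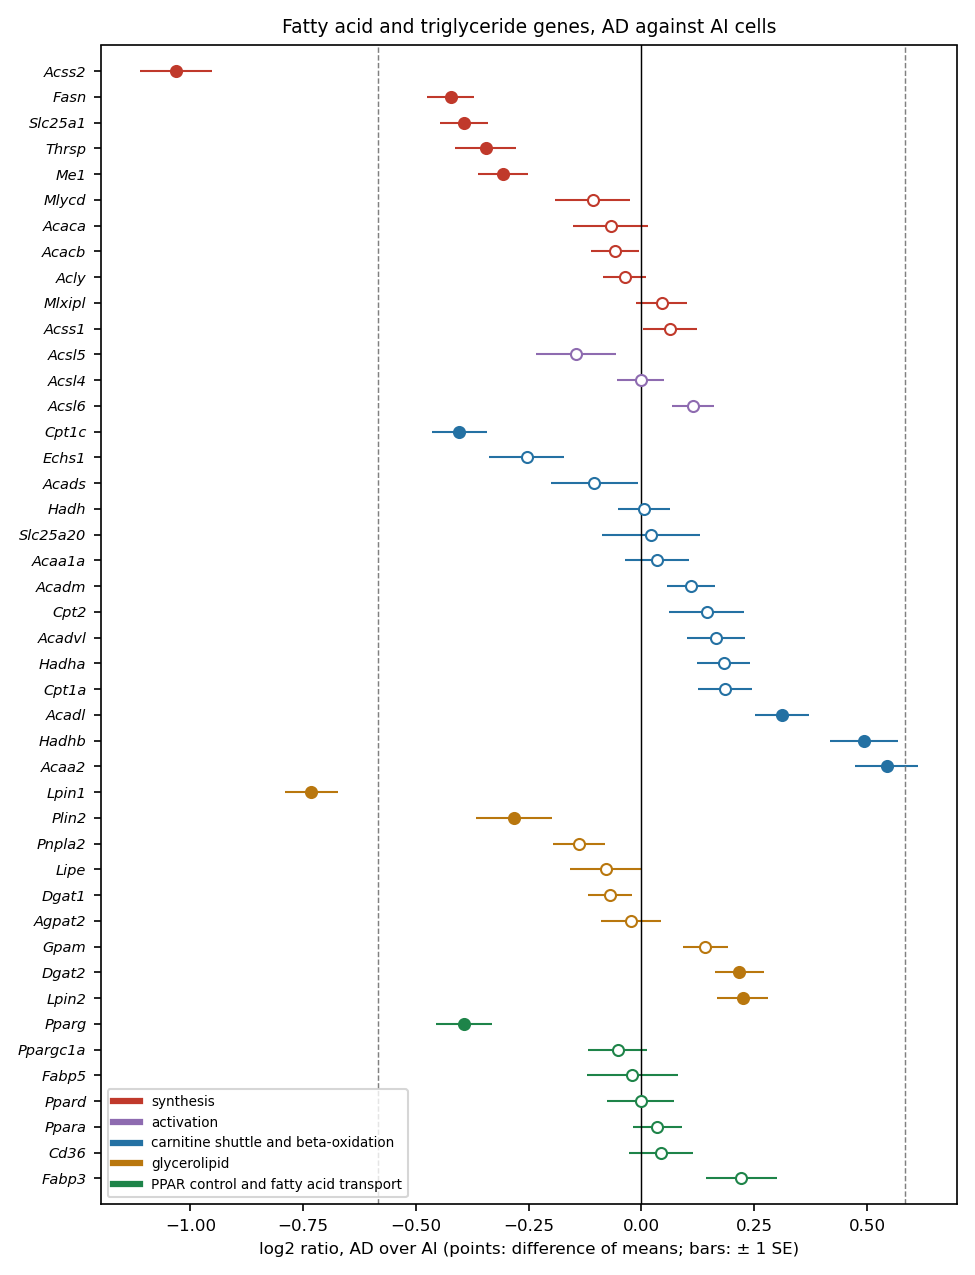
Log2 ratio of AD over AI cells (x axis) for each of the 44 measured genes (y axis), coloured by class, with bars of 1 SE from limma. Filled points have an adjusted p under 0.05, open points do not, and dashed lines mark 1.5-fold in each direction; only Acss2 and Lpin1 lie beyond them, on the AI side.

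For the genes on which these results turn, the promoters of Acss2, Lpin1, Fasn and Slc25a1 are shown as examples of genes higher in AI cells, and that of Hadhb as one higher in AD cells. Each is the 250 bases before the RefSeq transcription start in build GRCm38.p6, written 5′ to 3′ on the strand of the gene. They lie at chr2:155517793-155518042 on the plus strand (Acss2), chr12:16610967-16611216 on the minus strand (Lpin1), chr11:120824548-120824797 on the minus strand (Fasn), chr16:17928220-17928469 on the minus strand (Slc25a1) and chr5:30155003-30155252 on the plus strand (Hadhb). Capitals mark matches, on either strand, to TCACNCCAC (the sterol regulatory element core), CACGTG (the E-box), CCAAT (the NF-Y box, ATTGG on the reverse strand) or AGGTCA (a nuclear receptor binding site unit).
Acss2: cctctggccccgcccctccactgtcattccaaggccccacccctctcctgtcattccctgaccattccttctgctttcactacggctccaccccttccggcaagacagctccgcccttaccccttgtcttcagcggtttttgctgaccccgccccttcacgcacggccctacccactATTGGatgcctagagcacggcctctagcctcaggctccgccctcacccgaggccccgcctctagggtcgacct
Lpin1: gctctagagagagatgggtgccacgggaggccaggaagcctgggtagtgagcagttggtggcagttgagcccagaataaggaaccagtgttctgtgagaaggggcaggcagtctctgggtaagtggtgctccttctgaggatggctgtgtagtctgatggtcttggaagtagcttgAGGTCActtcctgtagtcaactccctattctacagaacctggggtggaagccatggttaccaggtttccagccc
Fasn: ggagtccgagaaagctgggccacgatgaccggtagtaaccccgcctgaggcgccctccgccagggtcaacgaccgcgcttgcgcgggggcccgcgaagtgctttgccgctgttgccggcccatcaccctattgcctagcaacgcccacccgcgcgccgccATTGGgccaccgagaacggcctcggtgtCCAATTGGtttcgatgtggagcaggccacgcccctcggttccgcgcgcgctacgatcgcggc
Slc25a1: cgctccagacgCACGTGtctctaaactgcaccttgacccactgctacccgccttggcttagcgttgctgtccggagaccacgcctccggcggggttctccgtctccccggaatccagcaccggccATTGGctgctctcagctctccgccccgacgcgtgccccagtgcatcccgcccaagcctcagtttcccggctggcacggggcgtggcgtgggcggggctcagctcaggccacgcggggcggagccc
Hadhb: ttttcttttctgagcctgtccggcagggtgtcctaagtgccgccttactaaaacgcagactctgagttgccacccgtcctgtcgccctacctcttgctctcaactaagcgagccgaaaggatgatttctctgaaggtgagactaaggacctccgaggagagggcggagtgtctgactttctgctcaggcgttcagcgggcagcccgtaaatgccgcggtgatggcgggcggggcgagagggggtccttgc

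Distances count from the first base of a match to the start. The Acss2 promoter held 1 NF-Y box, 73 bases before the start, and that of Lpin1 held 1 AGGTCA, 74 bases before it. Fasn had NF-Y boxes at 90, 62 and 59 bases before the start, and the last 2 overlap in one palindromic stretch. Slc25a1 had an E-box 239 and an NF-Y box 125 bases before its start. None of the 4 motifs was in the Hadhb window. Such 250-base windows were at hand for 40 of the 44 measured genes, which with more than 1 start for some genes made 50 windows. The NF-Y box was in 44% of these windows and in 33.8% of all 32851 windows, AGGTCA in 26% and 14%, the E-box in 8% and 6.02%, and the sterol element core in 2% and 1.05%. The sterol element match was that of Mlxipl. These matches are letters in a window and not shown to be bound sites.

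In the synthesis class Acss2, Fasn, Slc25a1, Me1 and Thrsp were higher in AI cells, while Acly, Acaca, Acacb, Mlycd, Mlxipl and Acss1 did not pass. Acss2 makes acetyl-CoA from acetate in the cytosol and nucleus. Its signal was 9.69, 9.75, 9.86 and 10.06 in AD replicates 1 to 4 and 10.87, 10.83, 10.90 and 10.88 in AI replicates 1 to 4. Every AI array lay above every AD array, and AD replicate 4 was the AD array nearest to them. The log2 ratio was -1.03 ± 0.08 (SE, n = 4 and 4), a 2.05-fold higher signal in AI cells (limma adjusted p = 5.81e-05; exact permutation p = 0.0286). Without AD replicate 4 it was -1.11.

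Fasn, the multienzyme that builds palmitate, read 10.51, 10.55, 10.53 and 10.40 in AD and 10.91, 10.93, 10.90 and 10.94 in AI cells. The groups did not overlap, and the ratio was -0.42 ± 0.05, or 1.34-fold higher in AI cells (limma adjusted p = 0.000727). Slc25a1, the mitochondrial carrier that exports citrate, read 10.98, 11.09, 11.06 and 10.99 in AD and 11.43, 11.41, 11.49 and 11.36 in AI cells. Again no AD array reached the AI range, and the signal was 1.31-fold higher in AI cells (log2 ratio -0.39 ± 0.05, limma adjusted p = 0.00123). Me1, the cytosolic malic enzyme that supplies NADPH, read 10.66, 10.77, 10.76 and 10.82 in AD and 11.11, 11.00, 11.06 and 11.07 in AI cells. It was 1.24-fold higher in AI cells without overlap (log2 ratio -0.31 ± 0.06, limma adjusted p = 0.00485), and its other cluster gave -0.29 (adjusted p = 0.0111). All 3 differences were under 1.5-fold.

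Thrsp, a small regulator of lipogenesis first known as a thyroid hormone responsive gene, read 5.55, 5.44, 5.37 and 5.57 in AD and 5.83, 5.95, 5.72 and 5.81 in AI cells. It was dim in both groups, so that its ratio of -0.35 ± 0.07 (limma adjusted p = 0.00786) stands for a difference of low signals.

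The remaining 6 synthesis genes did not pass the adjusted p. Acly, which cleaves cytosolic citrate into acetyl-CoA, had a ratio of -0.04 ± 0.05. The acetyl-CoA carboxylases, which make malonyl-CoA, had -0.07 ± 0.08 (Acaca) and -0.06 ± 0.05 (Acacb). Acly and Acaca stand between citrate export and the synthase in the pathway. Each of the 3 differences was about the size of its SE or smaller. The Acaca value rests on AD replicate 4, which read 9.38 while AD replicates 1 to 3 read 9.70 to 9.73, and without it the ratio was 0.02. Under median centring all 3 ratios turned positive, at 0.04, 0.01 and 0.02. Mlycd, which breaks malonyl-CoA down, had -0.11 ± 0.08. The carbohydrate response factor Mlxipl (0.05) and the mitochondrial acetate enzyme Acss1 (0.06) were dim in both groups.

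**Figure D2:**
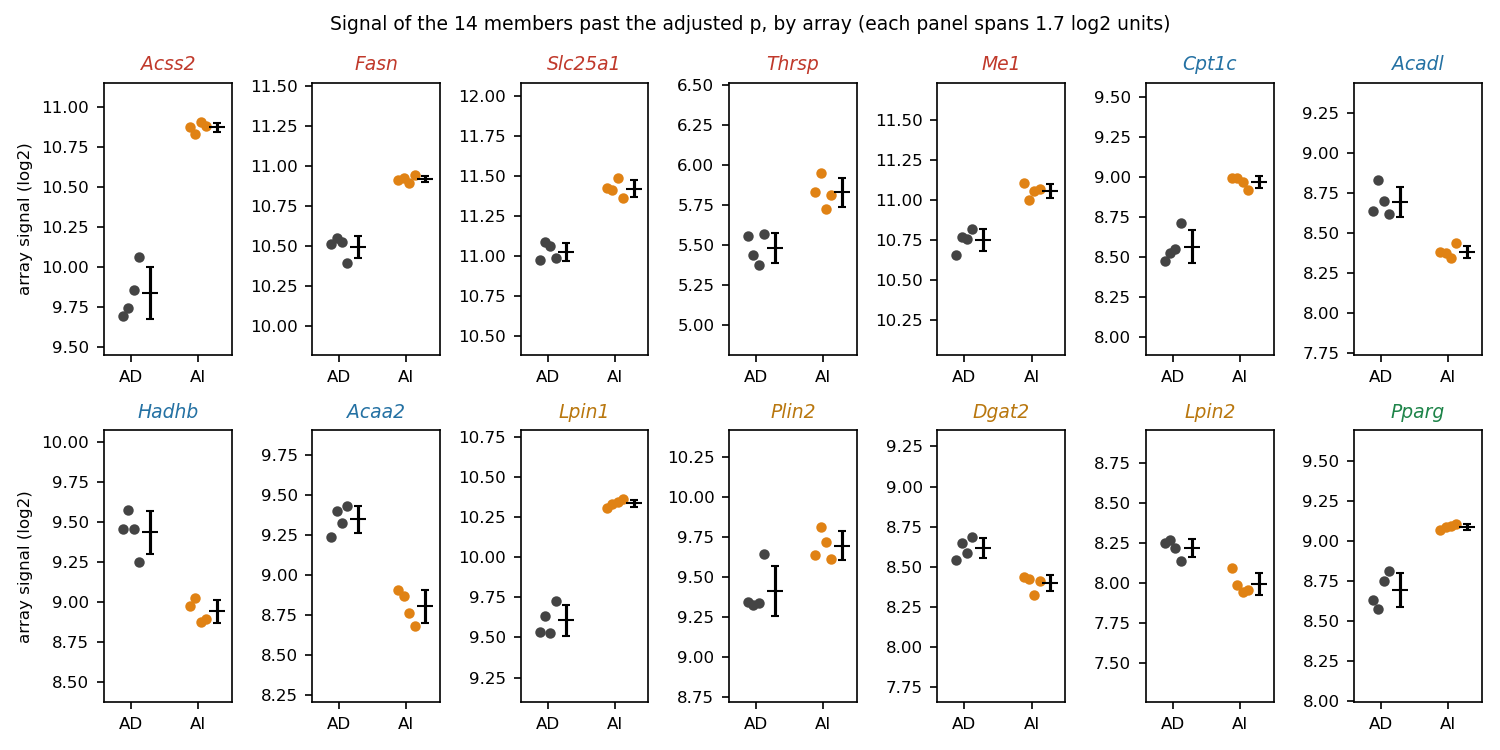
Log2 array signal (y axis) of the 14 genes with an adjusted p under 0.05, for the 4 AD (grey points) and 4 AI (orange points) arrays, with each group's mean and SD as a bar; all panels span 1.7 log2 units from different starts. The groups are apart in every panel except that of Plin2, where AD replicate 4 at 9.64 lies within the AI range. The 14 genes were selected by a test on these same arrays, so their separation is not further evidence. The share of all genes with groups apart was not counted.

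Activation joins a fatty acid to coenzyme A, and long-chain acyl-CoA synthetases carry it out. None of the 3 measured synthetases reached 1.5-fold, so none could be called with or without moderation. By limma 1 had an unadjusted p under 0.05. Acsl4, which prefers arachidonate, had a ratio of -0.00 ± 0.05, and the mean signal was 11.34 in both groups. Acsl5 had -0.15 ± 0.09, with AD replicate 4 the lowest AD array at 9.41, and -0.06 without that array. Acsl6, a brain-rich synthetase, read 8.78, 8.77, 8.72 and 8.75 in AD and 8.66, 8.65, 8.60 and 8.65 in AI cells. Its groups did not overlap, but the ratio was only 0.12 ± 0.05 (limma adjusted p = 0.128, exact permutation p = 0.0286). By the model without moderation Acsl6 passed the adjusted p (0.0123), at under 1.5-fold. With 2 negative ratios among 3, the class median of -0.0016 turned to 0.07 under median centring.

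In the carnitine shuttle and beta-oxidation class 11 of 14 ratios were positive. Acaa2, Hadhb and Acadl passed the adjusted p toward AD cells and Cpt1c toward AI cells. None reached 1.5-fold as deposited, so that 0 were called with or without moderation. By limma 6 toward AD and 2 toward AI had an unadjusted p under 0.05. Acaa2, the mitochondrial thiolase that releases acetyl-CoA, read 9.23, 9.40, 9.32 and 9.43 in AD and 8.90, 8.87, 8.76 and 8.68 in AI cells. Every AD array lay above every AI array, and the signal was 1.46-fold higher in AD cells (log2 ratio 0.54 ± 0.07, limma adjusted p = 0.000842). It was the member closest to the 1.5-fold threshold from below. Under median centring, which moved the ratio of every gene toward AD, it passed at 0.62.

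Hadhb encodes the thiolase subunit of the mitochondrial trifunctional protein. It read 9.46, 9.57, 9.46 and 9.25 in AD and 8.98, 9.02, 8.88 and 8.89 in AI cells. The lowest AD value was that of replicate 4, still above the AI range. The ratio was 0.49 ± 0.08, or 1.41-fold (limma adjusted p = 0.00212), and the other Hadhb cluster gave 0.49 (adjusted p = 0.00328).

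Hadha, the partner subunit that carries the hydratase and dehydrogenase activities, read 10.29, 10.39, 10.41 and 10.41 in AD and 10.20, 10.29, 10.10 and 10.17 in AI cells. The highest AI array lay just above the lowest AD array, and the ratio was 0.18 ± 0.06 (limma adjusted p = 0.063), so that Hadha did not pass as deposited. It passed under median centring (adjusted p = 0.035), with the dimmest 40% of clusters left out (0.0408), with trended robust moderation (0.0341) and with single-symbol clusters alone (0.0386). The difference between the 2 ratios was not tested. The RefSeq starts of these genes lie 273 bases apart, head to head, and their 250-base upstream windows share 228 bases, so the Hadhb promoter printed above is largely that of Hadha too.

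Of the acyl-CoA dehydrogenases, which take the first step of each cycle on chains of different length, 1 of 4 passed. Acadl, for long chains, read 8.64, 8.83, 8.70 and 8.62 in AD and 8.38, 8.37, 8.35 and 8.43 in AI cells. The groups were apart, and the signal was 1.24-fold higher in AD cells (log2 ratio 0.31 ± 0.06, limma adjusted p = 0.0068). Acadvl, for very long chains, had 0.17 ± 0.06, Acadm, for medium chains, 0.11 ± 0.05, and Acads, for short chains, -0.10 ± 0.10. Only the Acadm groups did not overlap among these 3.

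The carnitine palmitoyltransferase isoforms had ratios of opposite sign. Cpt1c, the neuronal isoform of the endoplasmic reticulum with little transferase activity, read 8.48, 8.53, 8.55 and 8.71 in AD and 8.996, 8.999, 8.971 and 8.920 in AI cells. All AI arrays were above all AD arrays, and the signal was 1.32-fold higher in AI cells (log2 ratio -0.40 ± 0.06, limma adjusted p = 0.00216). Cpt1a, the widespread isoform of the outer mitochondrial membrane that malonyl-CoA inhibits, read 9.83, 9.86, 9.95 and 9.77 in AD and 9.67, 9.74, 9.67 and 9.58 in AI cells. Its groups did not overlap in the other direction, but the ratio of 0.18 ± 0.06 did not pass (limma adjusted p = 0.063). Without AD replicate 4 it was 0.21 and passed (adjusted p = 0.0326). Cpt2, on the inner membrane, had 0.14 ± 0.08, and the carnitine carrier Slc25a20 0.02 ± 0.11, with wide spread in AI cells (7.978 to 8.503).

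Of the other enzymes of the cycle, Echs1, the short-chain hydratase, was apart between the groups with a ratio of -0.25 ± 0.08. It did not pass as deposited (limma adjusted p = 0.0653). Toward AI it passed under quantile normalization (adjusted p = 0.0407), with the dimmest 40% of clusters left out (0.0458) and with single-symbol clusters alone (0.0265). Hadh, the short-chain dehydrogenase, had 0.00 ± 0.06. Acaa1a, a peroxisomal thiolase, had 0.03 ± 0.07 and was dim in AI cells.

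**Figure D3:**
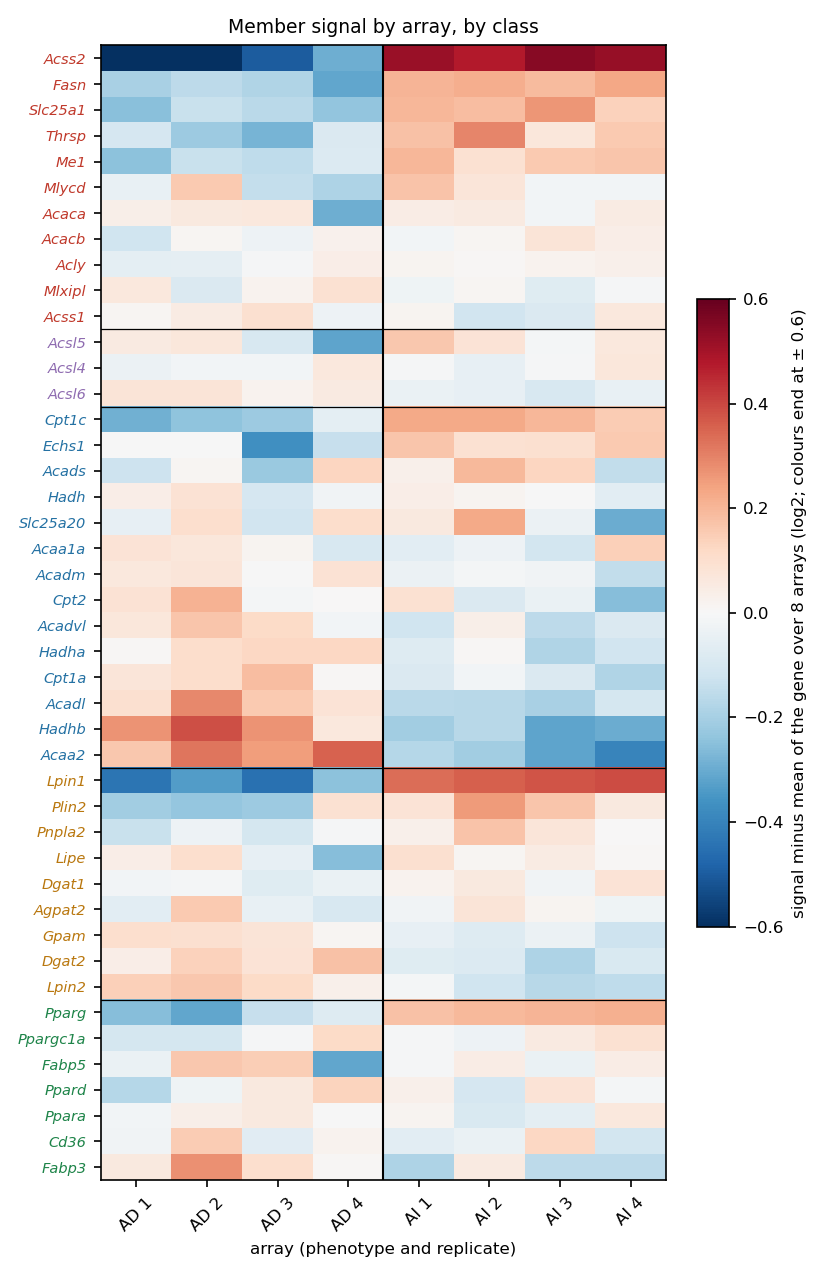
Signal of each of the 44 genes (rows, grouped by class) on each of the 8 arrays (columns), as the log2 difference from the mean of the gene over all arrays, from blue (lower) to red (higher), with colours ending at 0.6 on each side. The top synthesis rows and Lpin1 are blue in AD and red in AI arrays, the Acadl, Hadhb and Acaa2 rows the opposite, and the AD 4 column departs from its group for Acaca, Acsl5, Plin2 and Fabp5.

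In the glycerolipid class the 2 lipins went opposite ways. Lipins are phosphatidate phosphatases, which make the diacylglycerol for triglycerides and phospholipids, and Lpin1 also acts as a nuclear coregulator. Lpin1 read 9.54, 9.64, 9.53 and 9.73 in AD and 10.31, 10.33, 10.35 and 10.36 in AI cells. The AI arrays lay close together and all above the AD arrays. The log2 ratio was -0.73 ± 0.06, a 1.66-fold higher signal in AI cells (limma adjusted p = 6.95e-05; exact permutation p = 0.0286), and -0.77 without AD replicate 4.

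Lpin2 read 8.25, 8.27, 8.22 and 8.14 in AD and 8.09, 7.99, 7.94 and 7.95 in AI cells. It was apart between the groups and 1.17-fold higher in AD cells (log2 ratio 0.22 ± 0.06, limma adjusted p = 0.0245). Dgat2, one of the enzymes that add the last acyl chain of a triglyceride, read 8.54, 8.65, 8.59 and 8.68 in AD and 8.43, 8.42, 8.32 and 8.41 in AI cells. It too was apart and higher in AD cells, 1.16-fold (log2 ratio 0.22 ± 0.05, limma adjusted p = 0.0233). Dgat1, the unrelated enzyme of the same reaction, had -0.07 ± 0.05 and overlapping groups. Lpin2 and Dgat2 lost the adjusted p under some alternatives, with adjusted p up to 0.0756 and 0.0736.

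Plin2 coats lipid droplets in most cell types. It read 9.35, 9.32, 9.34 and 9.64 in AD and 9.63, 9.81, 9.72 and 9.61 in AI cells. The first 3 AD arrays lay below the AI range and replicate 4 inside it. The ratio was -0.28 ± 0.08 (limma adjusted p = 0.0464; exact permutation p = 0.0857), and -0.36 without AD replicate 4 (adjusted p = 0.00406). Leaving out any other single array took the adjusted p over 0.05, up to 0.119 over all alternatives.

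The other 5 glycerolipid genes did not pass. Gpam, the mitochondrial acyltransferase that starts glycerolipid synthesis, had 0.14 ± 0.05 with groups apart (limma adjusted p = 0.0834), and 0.16 without AD replicate 4 (adjusted p = 0.044). Agpat2, which adds the next acyl chain, had -0.02 ± 0.07. Of the lipases, Pnpla2, which takes the first fatty acid off a triglyceride, had -0.14 ± 0.06 with groups apart, and the hormone-sensitive lipase Lipe had -0.08 ± 0.08. Lipe too was lowest in AD replicate 4, at 6.25, and its ratio was -0.0083 without that array. The class median was -0.07 as deposited and 0.0063 under median centring, so that no direction holds for the class.

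Among the PPAR and transport genes 1 of 7 passed. Pparg, the nuclear receptor of adipocyte differentiation and lipid storage, read 8.63, 8.58, 8.75 and 8.81 in AD and 9.07, 9.09, 9.09 and 9.11 in AI cells. The AI arrays hardly differed from each other and all lay above the AD arrays. The signal was 1.31-fold higher in AI cells (log2 ratio -0.39 ± 0.06, limma adjusted p = 0.00253). Ppard, its widely expressed relative, had -0.00 ± 0.07, with 8.86 to 9.16 in AD and 8.93 to 9.11 in AI cells. Ppara, which drives oxidation genes in liver, and the coactivator Ppargc1a were dim in both groups, with 0.04 and -0.05.

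The fatty acid transporter Cd36 was also dim in both groups (0.04). Of the fatty acid binding proteins, Fabp5 had -0.02 ± 0.10, with AD replicate 4 at 9.99 below the other AD arrays (10.26 to 10.46), and 0.08 without that array. Fabp3 had 0.22 ± 0.08 with overlapping groups (limma adjusted p = 0.0853). None of the 7 reached 1.5-fold, so none could be called with or without moderation. By limma there was 1 in each direction at an unadjusted p under 0.05. In the 6 genes with a second single-symbol cluster (Acaca, Me1, Hadhb, Fabp3, Fabp5 and Ppargc1a) both clusters gave ratios of the same sign.

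Other genes of the same pathways were taken from a wider list of 103 genes, of which 97 were measured. Of these, 3 were called lower in AD (3.09%) and 1 higher (1.03%), with a median log2 ratio of 0.0017. At any fold 13 passed toward AI (13.4%) and 11 toward AD (11.3%), against the 10.7% and 11% of all genes given above. Further oxidation genes passed 5 times toward AD and 2 times toward AI among 25, with a median of 0.11. The further synthesis genes and their regulators had 3 toward AD and 2 toward AI among 15, with a median of 0.11, opposite in sign to that of the 11 synthesis genes described first. Among 28 further glycerolipid genes, of which 13 were dim, 6 passed toward AI and 3 toward AD.

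The called genes of the wider list were Aacs, Pnpla3 and Rxra toward AI and Slc25a10 toward AD. Aacs activates acetoacetate in the cytosol for lipid synthesis and read 8.73, 8.92, 8.78 and 8.78 in AD and 9.48, 9.47, 9.47 and 9.44 in AI cells. The groups were apart, at 1.58-fold (log2 ratio -0.66 ± 0.05, limma adjusted p = 8.01e-05). Pnpla3, a lipid droplet protein related to Pnpla2, read 6.95, 7.10, 7.07 and 6.82 in AD and 7.61, 7.57, 7.73 and 7.70 in AI cells. It was 1.59-fold higher in AI cells without overlap (log2 ratio -0.67 ± 0.07, limma adjusted p = 0.000393). Rxra, the partner with which PPAR receptors bind DNA, read 6.07, 6.14, 6.06 and 5.87 in AD and 6.70, 6.83, 6.56 and 6.73 in AI cells. Its groups too were apart, at 1.59-fold (log2 ratio -0.67 ± 0.08, limma adjusted p = 0.000513).

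Slc25a10, the mitochondrial dicarboxylate carrier, read 8.84, 8.82, 8.66 and 7.91 in AD and 7.92, 7.84, 7.73 and 7.75 in AI cells. AD replicates 1 to 3 lay far above the AI range and replicate 4 at its upper edge, so the groups overlapped. The ratio was 0.75 ± 0.18 (limma adjusted p = 0.0212; exact permutation p = 0.0571). Without AD replicate 4 it was 0.96 (adjusted p = 9.36e-05). The call was lost in the model without moderation (one-way analysis of variance, adjusted p = 0.0808). It was also lost on leaving out AD replicate 1, 2 or 3 (ratios 0.66, 0.66 and 0.72) or AI replicate 3 or 4 (0.72 and 0.73).

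Srebf1, whose protein drives Fasn and other synthesis genes, read 9.44, 9.55, 9.51 and 9.58 in AD and 9.59, 9.71, 9.65 and 9.59 in AI cells. The groups were just apart, but the ratio of -0.11 ± 0.06 did not pass (limma adjusted p = 0.206). Cleavage of SREBP proteins was not measured by these arrays.

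**Figure D4:**
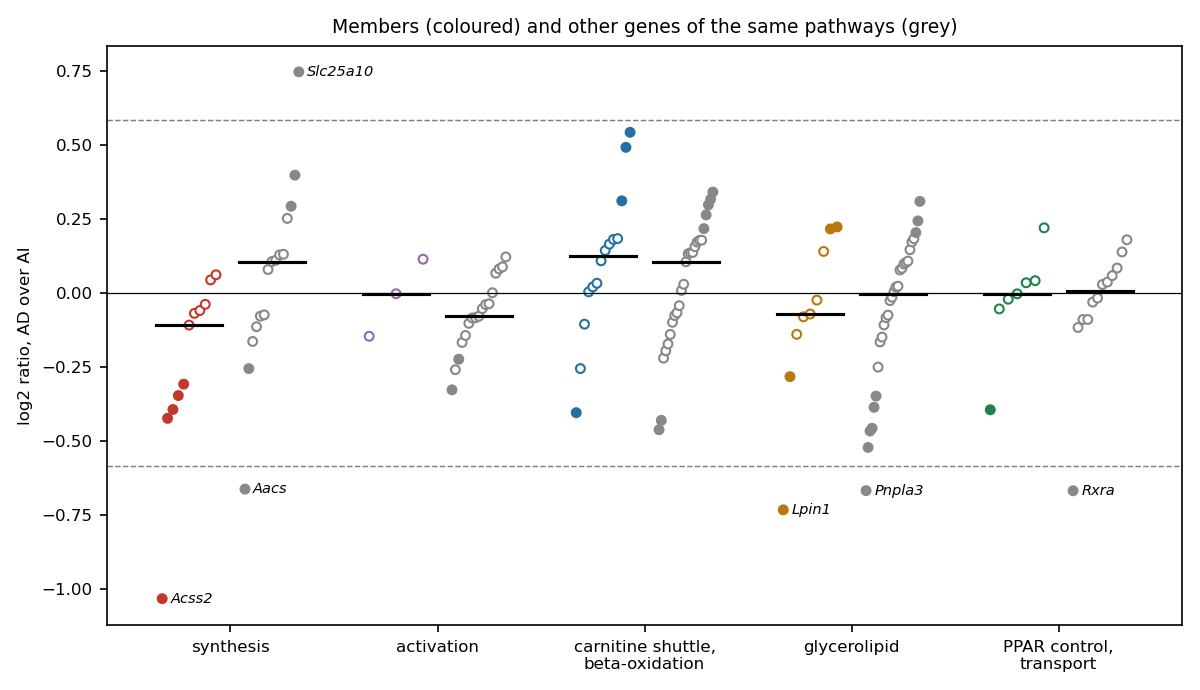
Log2 ratio of AD over AI cells (y axis) by class (x axis), for the 44 genes (coloured) beside 97 further genes of the same pathways (grey), with a bar at each median. Filled points have an adjusted p under 0.05, dashed lines mark 1.5-fold, and the 6 named genes are those called; the synthesis medians are -0.11 and 0.11, the oxidation medians 0.13 and 0.11.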

How the data were processed

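Total RNA of 8 Neuro2a samples was hybridized to Affymetrix mouse Gene ST arrays, 1 per sample, after amplification that copies whole transcripts. The deposited values are log2 signals per transcript cluster, which the authors background-corrected and normalized before deposit. The submitters' processing notes name GCRMA and Partek 6.5, while the methods name a later Partek version, GeneSpring and 3 normalizations (GCRMA with quantile, RMA and PLIER). The values were taken as GCRMA signals on those notes alone. GCRMA adjusts each probe by its base composition. The genome build is not given in the sources used here. Probe effects remain under any of the 3, so levels were not compared between genes. No scanner files or batch labels were used here.

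Symbols came from GEO's platform annotation, in which 21789 of 35556 clusters carried 1 symbol, 1621 several and 12146 none. Of the single-symbol clusters 21698 matched RefSeq by gene number. limma 3.58.1 in R 4.3.3 (lmFit, eBayes) compared 4 AD with 4 AI arrays over all clusters without covariates, and scripts were tested on simulated data. The members and lists were chosen with earlier results of these data known, so no set test was run. All members were named, called ones with the value of every array. Of the wider list, called genes (up to 5 per direction) and Srebf1 were named. The brightest cluster stood for a gene. Alternatives were quantile normalization, median centring, leaving out clusters under the 40th percentile of signal, the model without moderation (a one-way analysis of variance, as in the methods), trended robust moderation, the replicate number as a block, testing single-symbol clusters alone, averaging all clusters of a gene, other thresholds and omitting each array. The number of arrays limits the precision.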

Additional observations from a re-analysis of the deposited data

Results flagged for a closer look

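In 6 of 96 groups of 4 arrays, 1 array stood apart from the other 3 by Dixon's test, where chance gives about 1 in 20. AD replicate 4 was the array apart for 2 genes, Acaca at 9.38 (log2 signal, below the other AD arrays) and Plin2 at 9.64 (above them). The others were Acaca in AI replicate 3 at 9.65, Acsl6 in AI replicate 3 at 8.60, Hadha in AD replicate 1 at 10.29 (10.285 before rounding) and Fabp3 in AI replicate 2 at 6.15. Acaca, Hadha, Acsl6 and Fabp3 did not pass the adjusted p, and Plin2 did so only narrowly.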

How the results depend on the processing

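Acss2 and Lpin1 were called under every alternative except a threshold of 2-fold, which kept Acss2 alone (1 member lower in AD, 0 of the glycerolipid class, 0 and 0 of the wider list). Their ratios ranged from -1.11 to -0.96 and from -0.77 to -0.66. Median centring, which moved the ratio of every gene toward AD by the same amount, added 1 member higher in AD, in the oxidation class (Acaa2). At an adjusted p under 0.05 and any fold the counts were 9 members lower and 5 higher in AD, by class 5 in synthesis, 4 in oxidation, 4 in glycerolipid and 1 in PPAR control, and 13 and 11 in the wider list. The count of wider genes higher in AD fell to 0 without moderation and was 0 to 1 on leaving out single arrays. At any fold, 8 to 10 members were lower and 3 to 8 higher across settings, with 11 to 14 of the 14 shared. Only Plin2, Lpin2 and Dgat2 were lost in any. Shares over all genes were counted for the values as deposited and not for the alternative fits. Genes gained in 1 or more settings were Cpt1a, Hadha, Gpam, Fabp3, Acadvl and Acsl6 toward AD and Echs1 toward AI.

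No member that passed the adjusted p changed sign. Under quantile normalization Acacb turned to 0.031. Under median centring, which moved the median of all clusters from -0.0008 to 0.0757, these turned positive: Acly 0.039, Acaca 0.0085, Acacb 0.018, Acsl4 0.0749, Agpat2 0.0532, Dgat1 0.0063, Fabp5 0.0564, Ppard 0.0745 and Ppargc1a 0.0234. On leaving out single arrays, ratios that crossed 0 ranged from -0.0999 to 0.0183 for Acaca, -0.0229 to 0.0212 for Acsl4, -0.0743 to 0.1007 for Slc25a20, -0.0237 to 0.0385 for Hadh, -0.0794 to 0.0048 for Agpat2, -0.0772 to 0.08 for Fabp5, -0.0463 to 0.0542 for Ppard and -0.0011 to 0.0915 for Cd36.

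AD and AI arrays share replicate numbers, but deviations of same-numbered arrays correlated at -0.11, 0.08, 0.0048 and -0.17. Of 4 AD arrays 0 correlated best with its own number, so no pairing by number showed in these deviations. Without batch labels, whether same-numbered arrays shared a culture day or a batch is not known. With the replicate block the members called stayed 2 lower (Acss2 -1.03, Lpin1 -0.73) and 0 higher, and 8 lower and 3 higher passed at any fold.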
